A study of Mus musculus with 4 samples.

Results

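Fibrillar collagen is hydroxylated on proline and lysine in the endoplasmic reticulum, folded with the help of the chaperone HSP47, secreted, trimmed and then crosslinked outside the cell by lysyl oxidases. Prolyl 4-hydroxylation keeps the triple helix stable at body temperature, lysyl hydroxylation sets which crosslinks can form, and the copper enzymes of the lysyl oxidase family oxidise lysine and hydroxylysine so that neighbouring molecules join covalently. In fibroblasts these enzymes are known as part of the matrix response to TGFB1, a growth factor that drives wound repair and fibrosis. The 10 genes described here cover these steps. They are 4 lysyl oxidases (*Lox*, *Loxl1*, *Loxl2*, *Loxl3*), 2 lysyl hydroxylases (*Plod1*, *Plod2*), the 3 alpha subunits of prolyl 4-hydroxylase (*P4ha1*, *P4ha2*, *P4ha3*) and *Serpinh1*, which encodes HSP47. They were chosen by name and role out of 25774 genes that could be named in the expression table, and all 10 had a mean of at least 1 RPKM (reads scaled to transcript length and to the number of mapped reads), as did 10745 of the named genes.

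The RNA came from immortalized mouse embryonic fibroblasts (MEF) of C57BL/6 embryos at embryonic day 15.5, taken from the trunk without head, limbs and inner organs, either wild type (*Hmga2*+/+) or lacking HMGA2 (*Hmga2*-/-), a chromatin protein that binds AT-rich DNA. Both genotypes were starved overnight in 1% serum and then were kept for 24 h with water (Ctrl) or with recombinant human TGFB1 at 10 ng/ml. There was 1 library for each of the 4 conditions, so the spread between replicates is unknown and p-values are not given. Intervals are 95%, treat reads as independent and cover counting error only. Reads without molecular identifiers are not independent molecules, so the intervals may be too narrow even for that error. The genotypes are separate immortalized cultures, and a difference between the cultures cannot be told apart from the effect of the allele.

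The depths recovered from the table were 56140000 to 57300000 mapped reads per library. *Hmga2* was at 14.8 RPKM in *Hmga2*+/+ Ctrl and 40.7 RPKM in *Hmga2*+/+ TGFB1, with 0 reads in both *Hmga2*-/- libraries. The TGFB1 target *Ctgf* was at 13.2 and 173 RPKM in *Hmga2*+/+ and at 24.9 and 359 RPKM in *Hmga2*-/-, in Ctrl and TGFB1. All 6 fibroblast markers were above 1 RPKM in every library, with a summed level of 2020 to 2770 RPKM. The 3 skeletal muscle markers had 0 reads in every library, the 4 epithelial markers summed to at most 0.928 RPKM, and the 4 blood and macrophage markers to at most 1.97 RPKM. The endothelial list of 3 went from 1.14 to 4.53 RPKM and from 1.47 to 7.46 RPKM with TGFB1, almost all of it *Kdr*, while its other genes stayed below 0.05 RPKM. The neural list of 3 went from 0.933 to 2.81 RPKM and from 0.977 to 4.40 RPKM, nearly all *Tubb3*. The chondrocyte list of 3 went from 0.405 to 1.59 RPKM and from 0.407 to 1.25 RPKM, with most of the rise in *Acan*. Their part in the results was not tested.

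RNA levels of all 10 genes were higher in the TGFB1 library of each genotype. For *P4ha2* in *Hmga2*+/+ and *Plod1* in *Hmga2*-/- the counting interval spanned no change. At a threshold of 1.5-fold, 6 of 10 were higher in *Hmga2*+/+ (*Lox*, *Loxl2*, *Loxl3*, *Plod2*, *P4ha1* and *P4ha3*), where 11.5% of the 10745 genes were higher by that much. In *Hmga2*-/- the same 6 genes and *P4ha2* were higher, 7 of 10, where 13.3% of all genes were. None was lower by 1.5-fold in either genotype, against 15.8% and 14.2% of all genes. The median log2 change of the 10 genes was 0.62 in *Hmga2*+/+ and 1.04 in *Hmga2*-/-, while the medians of all genes were -0.04 and 0.02.

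**Figure D1:**
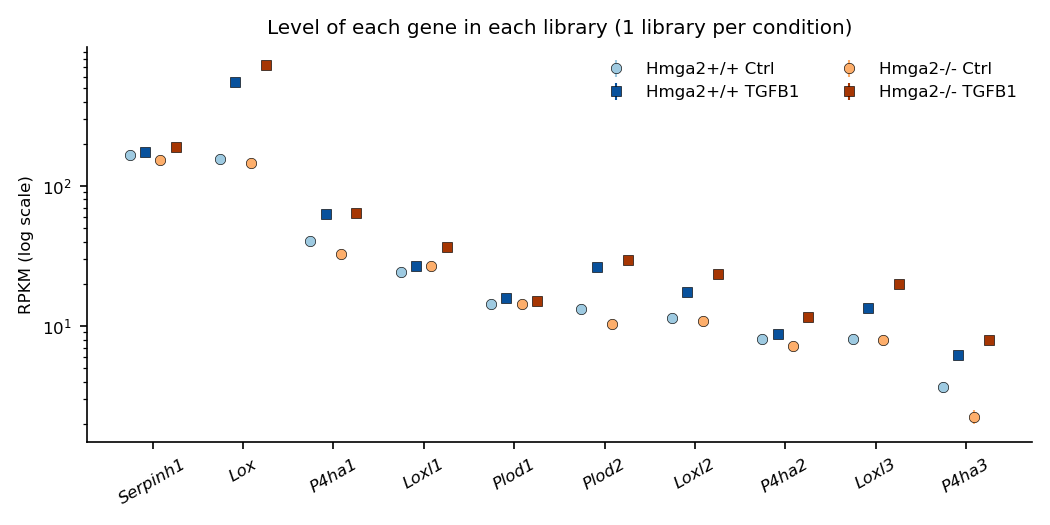
Level of each of the 10 genes in each of the 4 libraries, in RPKM on a log axis, with 95% counting intervals that are mostly smaller than the symbols. Circles are Ctrl and squares TGFB1, blue is Hmga2+/+ and orange Hmga2-/-; *Lox* moved from 155 to 547 RPKM and from 146 to 726 RPKM, while *Serpinh1* stayed between 154 and 188 RPKM.

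*Lox* encodes the founding lysyl oxidase and had the largest change of the 10. Its gene lies on chromosome 18 from 52516060 to 52529867 on the minus strand (mm10, as the table gives it). It was at 155 RPKM in *Hmga2*+/+ Ctrl, 547 RPKM in *Hmga2*+/+ TGFB1, 146 RPKM in *Hmga2*-/- Ctrl and 726 RPKM in *Hmga2*-/- TGFB1. Both TGFB1 libraries were far above both Ctrl libraries, and the *Hmga2*-/- TGFB1 library was the highest. The rise was 3.54-fold in *Hmga2*+/+ (log2 1.82, interval 1.81 to 1.84) and 4.97-fold in *Hmga2*-/- (log2 2.31, interval 2.30 to 2.33). By level, *Lox* stood at rank 90 of 10745 genes in *Hmga2*+/+ Ctrl and at rank 20 with TGFB1, and it went from rank 110 to rank 17 in *Hmga2*-/-. In *Hmga2*+/+ 151 genes rose more than *Lox*, 1.41% of all, and in *Hmga2*-/- 101 genes did, 0.94%.

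The changes of the *Lox* paralogs were smaller. *Loxl1* (chr9:58287723-58313212), an oxidase known for its part in elastic fibres, was at 24.4, 26.7, 26.8 and 36.4 RPKM in *Hmga2*+/+ Ctrl, *Hmga2*+/+ TGFB1, *Hmga2*-/- Ctrl and *Hmga2*-/- TGFB1, an order of libraries kept for the values below. Only the *Hmga2*-/- TGFB1 library stood well above the others, and neither TGFB1 change reached 1.5-fold (log2 0.13 and 0.44). *Loxl2* (chr14:69609167-69695834), which acts on collagen IV among other substrates, was at 11.4, 17.4, 10.9 and 23.6 RPKM. It was higher by 1.52-fold in *Hmga2*+/+, with an interval of the log2 change from 0.54 to 0.67 that reaches below the threshold of 0.58, and by 2.17-fold in *Hmga2*-/-. The call in *Hmga2*+/+ was lost with 1 RPKM added to every value (log2 0.56). *Loxl3* (chr6:83034224-83052564), the closest relative of *Loxl2* in domain structure, was at 8.10, 13.3, 7.95 and 20.0 RPKM, a rise of 1.65-fold and of 2.51-fold. For both, the Ctrl libraries were alike and the *Hmga2*-/- TGFB1 library was the highest. *Loxl4*, which is not among the 10, was the lowest of the family at 1.80, 2.55, 2.75 and 4.21 RPKM, and was higher in *Hmga2*-/- than in *Hmga2*+/+ with and without TGFB1 (1.65-fold and 1.53-fold).

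RPKM values are per length and were set side by side between genes. Other differences between genes, such as where reads can map, remain in these shares and ratios. The transcript taken matters as well, since *Lox* in *Hmga2*+/+ Ctrl was at 144 to 155 RPKM by transcript. *Lox* made up 77.2% of the summed RPKM of the 5 lysyl oxidases in *Hmga2*+/+ Ctrl and 90.1% with TGFB1, and 75.1% and 89.6% in *Hmga2*-/-. The sum itself went from 200.4 to 607 RPKM and from 195 to 810 RPKM. Set against its substrate collagen I, the *Lox* level was 0.476 of the *Col1a1* level in *Hmga2*+/+ Ctrl and 1.51 of it with TGFB1. In *Hmga2*-/- the ratio went from 0.536 to 2.001. *Col1a1* itself was at 325, 363, 272 and 363 RPKM, so the ratio moved mainly with *Lox*.

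**Figure D2:**
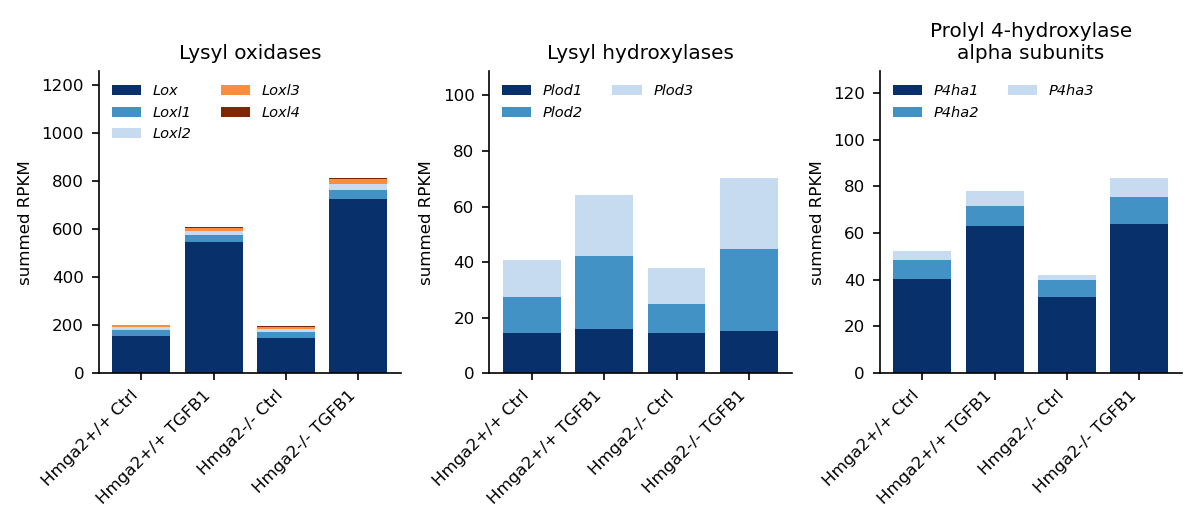
Summed RPKM of the lysyl oxidases, the lysyl hydroxylases and the prolyl 4-hydroxylase alpha subunits in each library, as stacked bars that start at 0. *Lox* filled 75.1% to 90.1% of its family and *P4ha1* 76.5% to 80.9% of the alpha subunits in the 4 libraries, while the *Plod2* share of the lysyl hydroxylases went from 32.4% to 41.2% and from 27.6% to 42.1% with TGFB1.

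The lysyl hydroxylases went apart. *Plod1* (chr4:147909753-147936776), which hydroxylates lysines in the helical part of collagen, was at 14.4, 15.7, 14.3 and 15.03 RPKM. The 4 libraries lay close together, with log2 changes on TGFB1 of 0.13 (interval 0.05 to 0.21) in *Hmga2*+/+ and 0.07 (interval -0.01 to 0.15) in *Hmga2*-/-. *Plod2* (chr9:92542223-92608427), the enzyme of the telopeptide lysines that give the stable crosslinks of scar and bone, was at 13.2, 26.5, 10.4 and 29.5 RPKM. Both TGFB1 libraries were above both Ctrl libraries, by 2.01-fold in *Hmga2*+/+ (log2 1.01, interval 0.94 to 1.07) and by 2.84-fold in *Hmga2*-/- (log2 1.51, interval 1.43 to 1.58). The ratio of *Plod2* to *Plod1* was below 1 in both Ctrl libraries (0.917 and 0.726) and above 1 in both TGFB1 libraries (1.68 and 1.97). *Plod3*, the paralog that also glycosylates hydroxylysine, was at 13.1, 22.0, 12.96 and 25.6 RPKM and rose 1.68-fold and 1.97-fold.

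*Plod2* makes a long and a short form, which differ by 1 alternative exon. The table lists both transcripts with the same ends, so the reads in that exon are the difference between their read numbers. This readout, and those of *P4ha1* and *P4ha2* exons that follow, were chosen after the values were seen. The exon is exon 14 of 20, coding, 63 bases long, at chr9:92601985-92602047 on the plus strand (mm10). The long form that holds it is the one linked to telopeptide hydroxylation, so its sequence is shown, from GENCODE transcripts:

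Plod2 alternative exon: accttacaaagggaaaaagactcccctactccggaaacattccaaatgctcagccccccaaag

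The exon held 50 reads in *Hmga2*+/+ Ctrl, 53 in *Hmga2*+/+ TGFB1, 32 in *Hmga2*-/- Ctrl and 143 in *Hmga2*-/- TGFB1. As a share of the reads of *Plod2* this was 1.84% (exact binomial interval 1.37 to 2.42), 0.952% (0.714 to 1.24), 1.48% (1.01 to 2.08) and 2.32% (1.95 to 2.72), where the exon makes up 1.66% of the counted length. The *Hmga2*+/+ TGFB1 library was below the length share and the *Hmga2*-/- TGFB1 library above it, while the intervals of both Ctrl libraries spanned it. With even coverage, 1.66% is the share if every *Plod2* transcript held the exon. A share above it therefore cannot be read as more of the long form. The intervals of *Hmga2*+/+ TGFB1 and *Hmga2*-/- Ctrl overlapped. The exon reads changed on TGFB1 by log2 0.05 (interval -0.53 to 0.64) in *Hmga2*+/+, where the reads outside the exon rose by 1.02. In *Hmga2*-/- the exon reads rose by 2.15 (interval 1.59 to 2.75) and the others by 1.49. Read numbers within so short an exon also depend on where reads can start and map, which was not tested.

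*P4ha1* has a pair of alternative exons of equal length, each exon 9 of 15 in its transcript and coding. They lie at chr10:59354340-59354410 and chr10:59355350-59355420 on the plus strand and are identical at 42 of 71 positions. Their sequences are shown, with capitals at the positions that differ, since they are the pair compared next:

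P4ha1 upstream exon 9: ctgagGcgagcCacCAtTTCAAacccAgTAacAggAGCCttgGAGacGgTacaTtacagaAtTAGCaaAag
P4ha1 downstream exon 9: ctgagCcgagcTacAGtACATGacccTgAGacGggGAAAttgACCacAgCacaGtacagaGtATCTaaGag

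The table lists a pair of transcripts with the same ends and the same length of 4014 counted bases, and these exons are the annotated internal difference between transcripts with those ends, but the table does not say which transcript holds which. The first had more reads than the second in *Hmga2*+/+ Ctrl (9118 and 8896), *Hmga2*-/- Ctrl (7449 and 7315) and *Hmga2*-/- TGFB1 (14575 and 14303). In *Hmga2*+/+ TGFB1 the order was turned, with 14478 and 14644 reads. The differences were 223, -166, 134 and 272 reads. At the mean level of the transcript an exon of this size would hold 157, 249, 128 and 251 reads. In *Hmga2*+/+ Ctrl, *Hmga2*-/- Ctrl and *Hmga2*-/- TGFB1 the difference was larger than that. As for *Plod2*, such read numbers also depend on where reads can start and map, which was not tested. The sign depends on which transcript is taken first, so only the turn of the order in *Hmga2*+/+ TGFB1 can be read from it. No interval was computed for this turn. For *P4ha2* the table holds a like pair, with exons of 60 and 66 bases, and there the transcript with the shorter exon had more reads in all 4 libraries (by 30, 39, 25 and 52). At the mean level of that transcript the shorter exon would hold 27, 30, 24 and 40 reads, fewer than each of these differences.

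**Figure D3:**
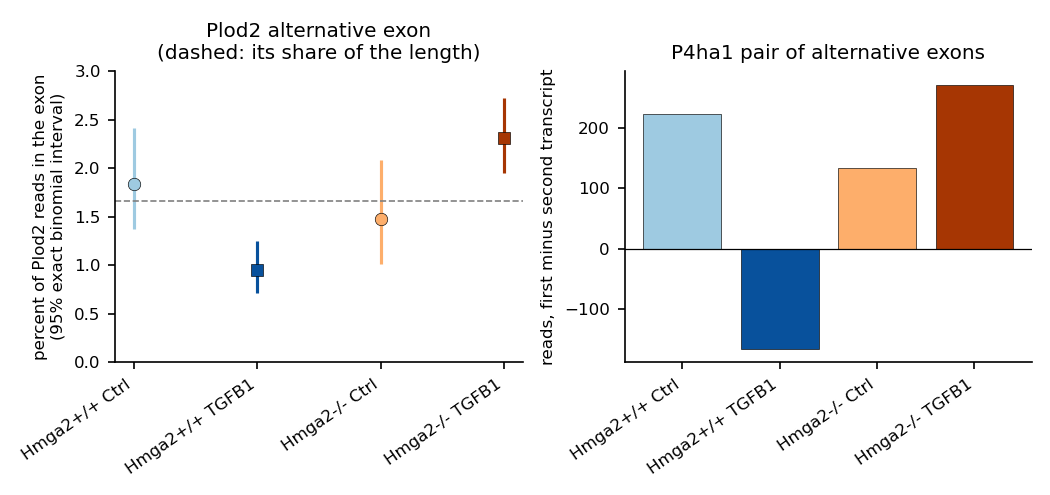
Left, percent of *Plod2* reads that fell in its alternative exon, with 95% exact binomial intervals and a dashed line at the share of the counted length (1.66%). Right, reads of the first minus the second *P4ha1* transcript, an order that is arbitrary. *Hmga2*+/+ TGFB1 is at 0.952% on the left, and on the right its sign (-166 reads) is opposite to that of the other 3 libraries.

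The prolyl 4-hydroxylase alpha subunits carry the catalytic site and pair with the beta subunit P4HB, which is also protein disulphide isomerase. *P4ha1* (chr10:59323296-59373304), the main alpha subunit, was at 40.5, 62.9, 32.8 and 63.8 RPKM. Both TGFB1 libraries were higher than both Ctrl libraries, by 1.56-fold in *Hmga2*+/+ (log2 0.64, interval 0.60 to 0.68) and by 1.95-fold in *Hmga2*-/- (log2 0.96, interval 0.92 to 1.00). *P4ha2* (chr11:54100924-54131667) was at 8.10, 8.72, 7.18 and 11.6 RPKM. Only the *Hmga2*-/- TGFB1 library stood apart. The log2 change was 0.11 (interval -0.02 to 0.23) in *Hmga2*+/+ and 0.69 (interval 0.57 to 0.81), or 1.62-fold, in *Hmga2*-/-. *P4ha3* (chr7:100285520-100319699), the least abundant alpha subunit, was at 3.65, 6.19, 2.24 and 7.98 RPKM, from 479, 828, 296 and 1062 reads. Its *Hmga2*-/- Ctrl library was the lowest and its *Hmga2*-/- TGFB1 library the highest, so that it rose 1.69-fold in *Hmga2*+/+ and 3.57-fold in *Hmga2*-/-.

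*P4hb* was at 174, 247, 167 and 262 RPKM, with TGFB1 ratios of 1.42 in *Hmga2*+/+ and 1.57 in *Hmga2*-/-. The 3 alpha subunits summed to 0.300, 0.315, 0.253 and 0.318 of the *P4hb* level, and the *Hmga2*-/- Ctrl library was the lowest. The *P4ha1* share of the alpha subunits was 77.5%, 80.9%, 77.7% and 76.5%, so *P4ha1* led in every library.

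*Serpinh1* (chr7:99345375-99353239) encodes the chaperone that binds the folded collagen helix. It was at 167, 176, 154 and 188 RPKM. Its levels were high in all 4 libraries, at ranks 82 to 102 of 10745 genes, and the TGFB1 changes were the smallest in *Hmga2*+/+ (log2 0.07, interval 0.05 to 0.10) and small in *Hmga2*-/- (log2 0.29, interval 0.26 to 0.32). Relative to *Col1a1* it was at 0.513, 0.484, 0.565 and 0.519. *Serpinh1* was the highest of the 10 genes in both Ctrl libraries and *Lox* in both TGFB1 libraries.

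The rest of the order also shifted. *Plod1* was above *Plod2* and *Loxl2* in both Ctrl libraries and below both of them in both TGFB1 libraries, while *P4ha3* was last in all 4. The counting intervals of neighbours overlapped for *P4ha2* and *Loxl3* in *Hmga2*+/+ Ctrl, for *Loxl1* and *Plod2* in *Hmga2*+/+ TGFB1, and for *Loxl2* and *Plod2* as well as *Loxl3* and *P4ha2* in *Hmga2*-/- Ctrl. In *Hmga2*-/- TGFB1 no neighbours overlapped.

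**Figure D4:**
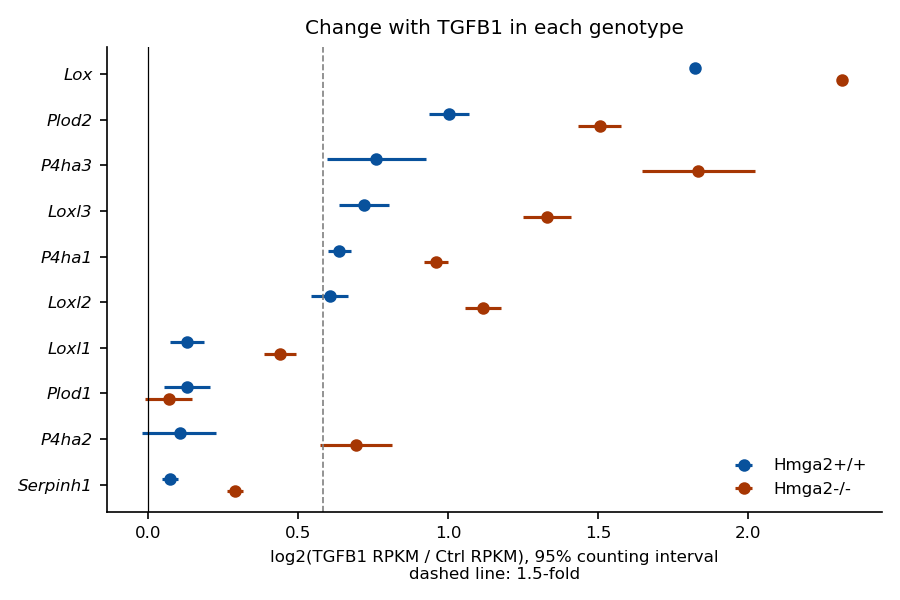
Log2 ratio of the TGFB1 to the Ctrl level of each gene, in Hmga2+/+ (blue) and Hmga2-/- (orange), with 95% counting intervals and a dashed line at 1.5-fold. The *Hmga2*-/- point lies to the right of the *Hmga2*+/+ point for 9 of 10 genes, the exception being *Plod1* (0.07 and 0.13).

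Without TGFB1, the genotypes differed little. Of the 10 genes 9 were lower in *Hmga2*-/- than in *Hmga2*+/+ and *Loxl1* was higher, with a median log2 difference of -0.10 against -0.02 for all genes. Only *P4ha3* passed 1.5-fold, with *Hmga2*-/- at 0.613 of the *Hmga2*+/+ level (log2 -0.71, interval -0.92 to -0.49), and it no longer passed with 1 RPKM added to every value (log2 -0.52). Over the 3 transcripts of *P4ha3* the log2 difference went from -0.71 to -0.48, the latter short of 1.5-fold. By that threshold 1.88% of all genes were lower and 2.23% higher, and none of the 10 was higher. *Plod2* (log2 -0.34, interval -0.42 to -0.26) and *P4ha1* (log2 -0.30, interval -0.35 to -0.26) came next. The intervals of *Loxl2*, *Loxl3* and *Plod1* spanned 0, with bounds between -0.14 and 0.08.

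Under TGFB1 the direction was the other way for most genes. The levels were higher in *Hmga2*-/- for 9 of 10, with a median log2 difference of 0.39 against 0.04 for all genes, but none passed 1.5-fold in either direction, where 3.04% of all genes were higher and 1.95% lower. *Loxl3* was nearest at 1.497-fold (log2 0.58, interval 0.52 to 0.65). The 4 lysyl oxidases differed by log2 0.41 to 0.58, *P4ha2* by 0.41 and *P4ha3* by 0.37. *Plod2* differed by 0.16, *Serpinh1* by 0.10 and *P4ha1* by 0.02 (interval -0.01 to 0.05), and *Plod1* was at -0.06 (interval -0.14 to 0.01).

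The difference between the TGFB1 changes of the genotypes uses all 4 libraries, and it shares them with the comparisons above. It was above 0 for 9 of 10 genes, with a median of 0.50 on the log2 scale against 0.05 for all genes. A 1.5-fold larger rise in *Hmga2*-/- was reached by *P4ha3* (2.11-fold, log2 1.07, interval 0.83 to 1.32), *Loxl3* (1.53-fold, interval 0.50 to 0.72 on the log2 scale) and *P4ha2* (1.504-fold, interval 0.42 to 0.76). For all genes 2.51% had a rise larger by that much and 1.67% one smaller, and none of the 10 was among the latter. *Loxl2* (0.51), *Plod2* (0.50) and *Lox* (0.49) were just short of the threshold. By transcript, *P4ha3* lay between 0.62 and 1.17. The calls of *Loxl3* and *P4ha2* did not hold when the libraries were rescaled by the median ratio of all genes (log2 0.55 and 0.53) or when 1 RPKM was added to every value (0.57 and 0.53). For *Plod1* the difference was -0.06 (interval -0.17 to 0.05).

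The other genes of the collagen-modifying pathway did not move as a block. Of 37 genes listed beside the 10, 34 had a mean of at least 1 RPKM. Of these 34, 6 were at least 1.5-fold higher and 7 lower with TGFB1 in *Hmga2*+/+, and 9 were higher and 5 lower in *Hmga2*-/-. Of all genes 11.5% were higher and 15.8% lower by that much in *Hmga2*+/+, and 13.3% and 14.2% in *Hmga2*-/-. The median log2 changes of the 34 genes were -0.07 and 0.10.

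Prolyl 3-hydroxylases and their partners modify single prolines in the chain. Of 6 such genes, 0 were higher and 2 lower in *Hmga2*+/+, and 1 was higher and 1 lower in *Hmga2*-/-, beside the shares of all genes given above. *P3h2* was at 7.69, 3.15, 7.13 and 2.18 RPKM, lower in both TGFB1 libraries, and *P3h3* at 9.54, 5.22, 7.55 and 5.20 RPKM. *P3h4* was at 9.55, 9.50, 8.31 and 12.6 RPKM and passed the threshold only in *Hmga2*-/- (log2 0.60). Among the foldases, *Fkbp7* was at 15.6, 8.42, 13.9 and 8.10 RPKM, while *Fkbp10*, whose product assists telopeptide lysyl hydroxylation, was at 32.2, 42.2, 30.1 and 44.3 RPKM, short of 1.5-fold in both genotypes. *Ppib*, a prolyl isomerase of the endoplasmic reticulum, lay between 222 and 243 RPKM.

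Enzymes that remove the procollagen ends went in both directions. *Tll1*, a tolloid protease that cuts the C-propeptide, was at 5.29, 17.1, 5.09 and 30.5 RPKM, a rise of 3.23-fold and 5.99-fold. The enhancer protein gene *Pcolce* was at 113, 71.4, 90.7 and 64.8 RPKM and its relative *Pcolce2* at 0.453, 2.75, 0.707 and 4.11 RPKM, so the abundant one was lower and the scarce one higher with TGFB1. The N-propeptide proteases *Adamts2* (3.86, 1.34, 4.85 and 1.77 RPKM) and *Adamts3* (4.12, 1.56, 1.48 and 0.398 RPKM) were lower in the TGFB1 library of each genotype, as was *Adamts14*, which stayed at or below 0.55 RPKM and is not among the 34. *Tgm2*, a transglutaminase that crosslinks by another chemistry, was at 3.60, 1.47, 2.58 and 1.17 RPKM.

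Of 4 matrix proteins that position lysyl oxidases or their substrates, 3 were at least 1.5-fold higher with TGFB1 in both genotypes. Of all genes 11.5% were higher by that much in *Hmga2*+/+ and 13.3% in *Hmga2*-/-. *Fmod* was at 3.11, 14.02, 4.04 and 17.4 RPKM, *Fbln5* at 23.2, 35.9, 29.3 and 54.0 RPKM, and *Postn* at 147, 224, 148 and 248 RPKM. The other gene, *Efemp2*, was slightly lower with TGFB1 in both genotypes, at 34.6, 31.45, 37.2 and 34.5 RPKM. The median log2 change of these 4 genes was 0.62 and 0.81. Among 6 substrates, *Eln*, which encodes elastin, was at 3.61, 14.6, 2.63 and 18.1 RPKM, *Col5a1* at 43.3, 73.0, 41.2 and 81.1 RPKM and *Col5a2* at 133, 204, 126 and 226 RPKM, all higher with TGFB1. *Col3a1* was lower, at 287, 176, 237 and 141 RPKM.

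**Figure D5:**
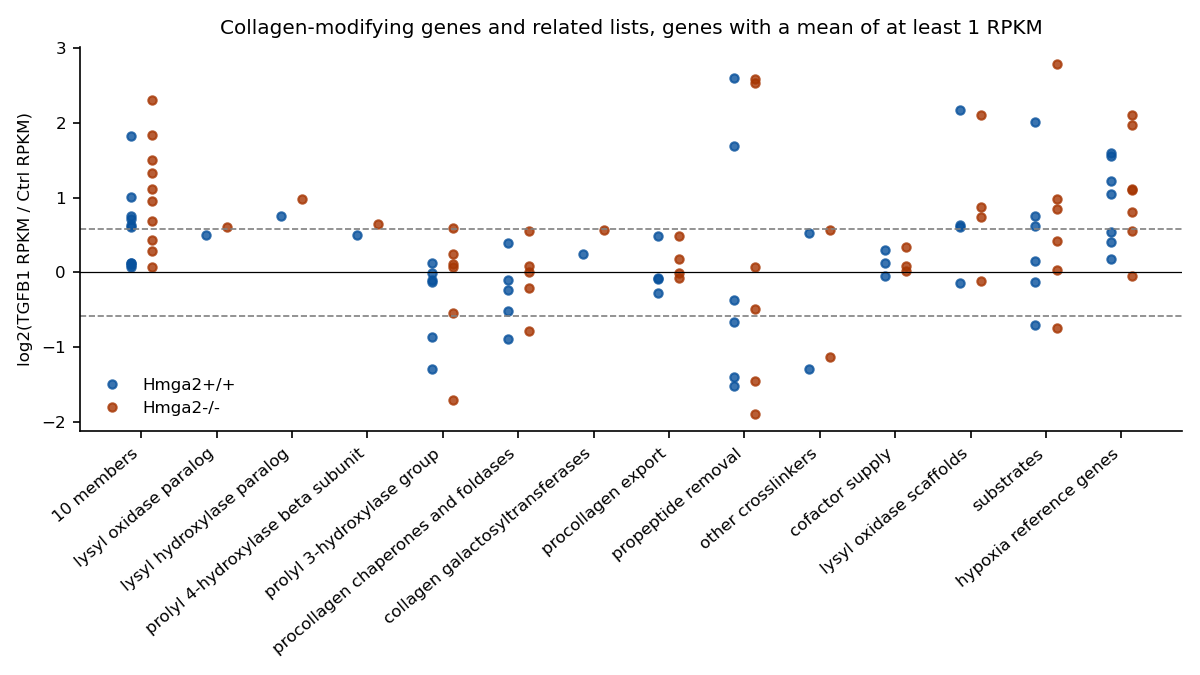
Log2 ratio of the TGFB1 to the Ctrl level for each gene with a mean of at least 1 RPKM, in Hmga2+/+ (blue) and Hmga2-/- (orange), by list, with dashed lines at 1.5-fold in each direction. The 10 members lie at or above 0.07 in both genotypes, while the propeptide removal and prolyl 3-hydroxylase lists hold genes on both sides of 0.

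*P4ha1*, *P4ha2*, *Plod2* and *Lox* are known as genes that respond to hypoxia, so 9 hypoxia reference genes were read beside them. Of these, 7 had a mean of at least 1 RPKM. With TGFB1 4 of the 7 were at least 1.5-fold higher in *Hmga2*+/+ and 5 in *Hmga2*-/-, and none was lower. Of all genes 11.5% and 13.3% were higher by that much, and 15.8% and 14.2% lower. The median log2 changes of the 7 genes were 1.05 and 1.10. *Vegfa*, an angiogenic factor, was at 13.2, 39.9, 10.3 and 44.5 RPKM, *Slc2a1*, a glucose transporter, at 9.90, 29.2, 8.15 and 32.1 RPKM, and *Ldha*, a glycolytic enzyme, at 75.5, 157, 81.8 and 175 RPKM. *Bnip3* (8.31, 11.1, 8.38 and 12.3 RPKM) and *Ndrg1* (13.5, 15.3, 18.1 and 17.6 RPKM) stayed short of 1.5-fold in both genotypes. *Pdk1* was short of it in *Hmga2*+/+ only. The part of this list in the changes of the 10 genes was not tested.

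RefSeq promoter sequences (GRCm38.p6) were at hand for 5 of the 10 genes: *P4ha1*, *P4ha2*, *P4ha3*, *Plod1* and *Serpinh1*. In the 250 bases before each start the letters ACGTG, the core of the hypoxia response element, and CAGAC, a core bound by SMAD proteins, were searched on both strands. ACGTG was found in *P4ha1*, *P4ha2* and *Serpinh1*, and 16.6% of 32851 promoters of this length hold it. CAGAC was found in *Plod1* and *Serpinh1*, against 42.2% of all promoters. *P4ha3* held neither. The GC box GGGCGG was found in all 5 promoters, and 32.7% of all promoters hold at least 1. There was 1 match in *P4ha1*, 2 in *P4ha2*, 5 in *P4ha3*, some of which overlap each other, 2 in *Plod1* and 1 in *Serpinh1*. G and C made up 61.6% to 70% of the bases of the 5 promoters. Also searched were TATAAA, found only in *Plod1* (12.4% of all promoters), and 3 motifs found in none. These were CCAAT (33.8% of all promoters), the AP-1 site TGANTCA (6.75%) and the heat shock letters GAANNTTC (6.69%). No match of ACGTG or CAGAC overlapped another motif. The promoters of the alpha subunits are shown because all 3 genes rose in *Hmga2*-/-, with capitals at ACGTG or its reverse complement. They lie at chr10:59323046-59323295, chr11:54100674-54100923 and chr7:100285270-100285519, all on the plus strand:

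P4ha1 promoter: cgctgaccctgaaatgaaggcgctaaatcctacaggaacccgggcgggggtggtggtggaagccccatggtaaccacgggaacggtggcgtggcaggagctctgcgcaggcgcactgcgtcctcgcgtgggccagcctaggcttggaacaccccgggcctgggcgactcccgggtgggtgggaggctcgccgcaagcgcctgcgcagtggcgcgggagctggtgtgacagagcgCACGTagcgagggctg
P4ha2 promoter: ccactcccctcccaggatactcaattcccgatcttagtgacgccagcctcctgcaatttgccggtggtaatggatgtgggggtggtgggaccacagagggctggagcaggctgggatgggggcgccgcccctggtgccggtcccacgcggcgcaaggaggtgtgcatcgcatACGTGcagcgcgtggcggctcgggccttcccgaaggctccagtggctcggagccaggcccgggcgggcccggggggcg
P4ha3 promoter: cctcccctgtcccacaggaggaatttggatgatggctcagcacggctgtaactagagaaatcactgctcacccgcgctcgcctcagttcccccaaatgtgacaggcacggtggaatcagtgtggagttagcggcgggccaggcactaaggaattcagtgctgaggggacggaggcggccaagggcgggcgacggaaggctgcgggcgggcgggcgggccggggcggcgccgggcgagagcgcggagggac

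The match lay 16 to 12 bases before the start in *P4ha1* and 78 to 74 bases before it in *P4ha2*. A match is a description of the letters and not a measured binding site.

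The genes whose profile over the 4 libraries was most like that of *Lox* were *Ncam1* (7.70, 28.4, 7.89 and 34.9 RPKM), *Ak4* (0.507, 2.15, 0.486 and 2.47 RPKM) and *Kctd11* (1.30, 4.27, 1.19 and 6.89 RPKM), by the Euclidean distance between centred log2 levels (0.126, 0.208 and 0.209). The nearest of the other 9 genes was *Plod2*, at 0.852. For *Serpinh1*, the gene with the smallest TGFB1 change in *Hmga2*+/+, the nearest were *Lamtor3*, *Ythdf3* and *Zik1*, at distances of 0.0122 to 0.0176.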

How the data were processed

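RNA was sequenced from 4 samples, 1 for each genotype and treatment. Per the labels and methods, the authors made stranded total RNA libraries, read 75 bases from 1 end, trimmed them, aligned them with HISAT2 2.1.0 to mm10 and computed RPKM per transcript, on the transcript's own strand, with HOMER. The deposited RPKM were used as given, and the file header names exons as the counted region. The methods mention duplicates, and whether a column pools them is not given in the sources used here.

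Transcripts (63759) were named by position on the same strand (GENCODE vM21), 90.5% of them, and each gene was read from its longest gene body. Depth was chosen to bring the low values of transcripts under 600 bases near whole reads, and all then lay within 0.1 of a whole read. A test on simulated whole reads covers this search only. A change was called at 1.5-fold, with 0 RPKM set to 0.001, among genes with a mean of at least 1 RPKM. Intervals were exact binomial on reads, and for the difference between genotypes a normal approximation. Exon reads came from transcripts of equal ends. Python 3.11.15, pandas 2.3.3, scipy 1.17.1 and matplotlib 3.10.9 were used. No column belonged to another sample.

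The genes, the pathway lists and the rule for named genes were chosen with earlier results of these data known. Named were the 10 genes, pathway genes past 1.5-fold, near paralogs and partners, treatment checks, and the 3 nearest profiles. *Efemp2*, *Bnip3* and *Ndrg1* were named so that their lists were not shown by genes that rose alone. Alternatives were pseudocounts of 1 and 0.1 RPKM, rescaling by the median ratio, another transcript per gene, a 2-fold threshold and no filter.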

Additional observations from a re-analysis of the deposited data

Results flagged for a closer look

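In the prolyl 3-hydroxylation complex, *P3h1*, the catalytic subunit, changed on TGFB1 by log2 -0.11 in *Hmga2*+/+ and by 0.25 in *Hmga2*-/-. Its partner *Crtap* changed by -0.13 and by 0.11. Both went in opposite directions in the genotypes with counting intervals that left out 0. These changes lay between the quartiles of all genes, -0.38 and 0.28 in *Hmga2*+/+ and -0.33 and 0.34 in *Hmga2*-/-. Rescaling by the median ratio shifts changes on TGFB1 by log2 0.037 in *Hmga2*+/+ and -0.018 in *Hmga2*-/-. With that shift the *P3h1* interval in *Hmga2*+/+ would span 0. Whether the other intervals leave out 0 after rescaling was not tested. The difference between the genotypes was log2 0.35 (counting interval 0.21 to 0.49) for *P3h1* and 0.24 (0.11 to 0.37) for *Crtap*. None of these values reached 1.5-fold, and with 1 library per condition the difference was not tested against the spread between replicates.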

How the results depend on the processing

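No test across replicates was possible because there was 1 library per condition, and no paired analysis was possible because of it. All 10 genes stayed above 0 on TGFB1 in both genotypes under every alternative. With a pseudocount of 1 RPKM, 0 genes were 1.5-fold lower in *Hmga2*-/- Ctrl and 1 had a larger rise in *Hmga2*-/-. Rescaling by the median ratio also left 1 with a larger rise. At 2-fold, 2 genes rose in *Hmga2*+/+, 0 were lower in *Hmga2*-/- Ctrl and 1 had a larger rise in *Hmga2*-/-. Of 250 changes of single genes 241 kept direction and side of the threshold, 7 fell short of it, and the near-zero values of *Plod1* (Ctrl) and *P4ha1* (TGFB1) between genotypes changed sign on rescaling (0.02 and -0.01). Without the filter on low values the shares of all genes past 1.5-fold rose. They were 26.9% and 25.6% for lower genes on TGFB1 (*Hmga2*+/+ and *Hmga2*-/-), 11.8% higher and 12.3% lower between genotypes in Ctrl, 13.1% and 11.5% under TGFB1, and 15.8% and 14.5% for the difference in response. Counts in the exons were too few to resolve small shifts.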
